A study of Mus musculus with 20 samples.

Results

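RNA levels of 42 T-cell receptor (TCR) signalling genes were examined in murine T lineage acute lymphoblastic leukemias (T-ALLs) that arose by insertional mutagenesis (IM). The genes were chosen by name and all 42 were found among the 39017 genes of the deposited table. The primary leukemias were induced with the MOL4070LTR retrovirus in mice of a line carrying the *Mx1-Cre* transgene, in which Cre is switched on by injection of pIpC, and in littermates. *Mx1-Cre* is an interferon-responsive transgene that is active in blood-forming cells and not in T cells alone. Leukemia cells were transplanted into irradiated C57Bl/6 x 129Sv/Jae F1 recipients, and RNA was taken from whole bone marrow. The marrow therefore also held host cells, and in bulk RNA fewer cells of a type and less RNA per cell cannot be told apart. The study gives the ages of the mice at virus injection, at pIpC and, for recipients, at transplantation. The age at which marrow was taken was not given in the sources used here, and no genotypes were compared. Libraries came from 9 leukemias, 20M, JW81, 2M, 73A, 78A, 73M, 5C, 8633 and JW14, each a separate primary leukemia with 2 libraries. The column of one library carried the letters VEH and that of the other DEX, which the study's text does not explain, and these column names define the only paired comparison made. A further leukemia, 4638, had 2 libraries, was kept out of the comparisons reported here and is given as values.

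The T-cell receptor binds peptide on MHC molecules through its variable chains and signals through the associated CD3 chains. The kinase LCK phosphorylates tyrosines of the CD3 chains, ZAP70 docks there, and ZAP70 in turn phosphorylates the adaptors LAT and SLP76, on which VAV1 and PLCG1 assemble. Calcium, diacylglycerol and RAS signals from this complex reach the transcription factors NFAT, NF-kB and AP-1. Phosphatases, ubiquitin ligases, the kinase CSK and diacylglycerol kinases restrain the cascade, and costimulatory receptors such as CD28 and CTLA4 set its strength. In the thymus the same machinery, attached to the pre-TCR and then to the mature receptor, drives the selection of thymocytes, the cells from which T-ALL arises.

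The deposited values were expected counts, from which FPKM (counts per kilobase of exon and per M counts of the library) were calculated. The 18 libraries held 8226528 to 201222288 counts (median 24451898), so that 3 counts, taken as the floor, were 0.0149 to 0.365 FPKM for 1 kb of exon. Cytoplasmic ribosomal RNA genes took 21.6 to 64.05 of every M counts in 5 libraries (DEX of JW81, JW14, 73M and 20M, and VEH of 5C), against 0.00497 or less in the other 13. B lineage genes were highest in 73M, where *Cd79b* was at 7.99 and *Cd79a* at 4.84 FPKM and the VEH library summed to 29.8 FPKM over 9 genes, against 0.545 to 8.27 FPKM in the other VEH libraries. Of 3 regulatory T-cell genes, *Foxp3* did not pass 0.402 FPKM in any of the 9 leukemias and *Ikzf4* did not pass 0.273, whereas *Ikzf2* was at 4.97 to 26.4 FPKM. The mean over the 3 genes was lower in the DEX library of 8 of 9 leukemias (−0.27 ± 0.29 on the log2(FPKM + 1) scale, SD). Taken singly, *Ikzf2* was lower in 8 and *Ikzf4* in 7, whereas *Foxp3* was higher in 5 and lower in 4. *Ikzf2*, the 1 gene tested, was at −0.81 (SE 0.26, edgeR adjusted p = 0.0608). Neutrophil genes were present and differed widely, their sum over 7 genes ranging from 43.8 FPKM in JW14 to 4456 FPKM in 73A among VEH libraries.

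The core of the cascade was expressed in every leukemia. All 42 genes passed the filter of a mean of at least 1 FPKM, 22 of them were at 10 FPKM or more in all 9 leukemias, and 4 (*Txk*, *Ctla4*, *Icos* and *Nfatc2*) were under 1 FPKM in at least 1 leukemia. Levels nevertheless differed among leukemias for 39 of the 42 (92.9%), as judged by edgeR's quasi-likelihood F test at an adjusted p of 0.05, against 82.5% of the 11339 genes tested. The exceptions were *Csk* (adjusted p = 0.747), *Bcl10* (adjusted p = 0.105) and *Ubash3a* (adjusted p = 0.109). The highest leukemia was at 4 or more times the lowest for 17 of the 42, against 23.9% of all genes tested. The median SD among leukemias, on the log2(FPKM + 1) scale, was 0.49 for the 42 genes and 0.32 for all genes tested. With only 2 libraries in each leukemia, and nothing in the labels on whether they came from separate mice, this F test measures spread between libraries that may be technical.

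**Figure D1:**
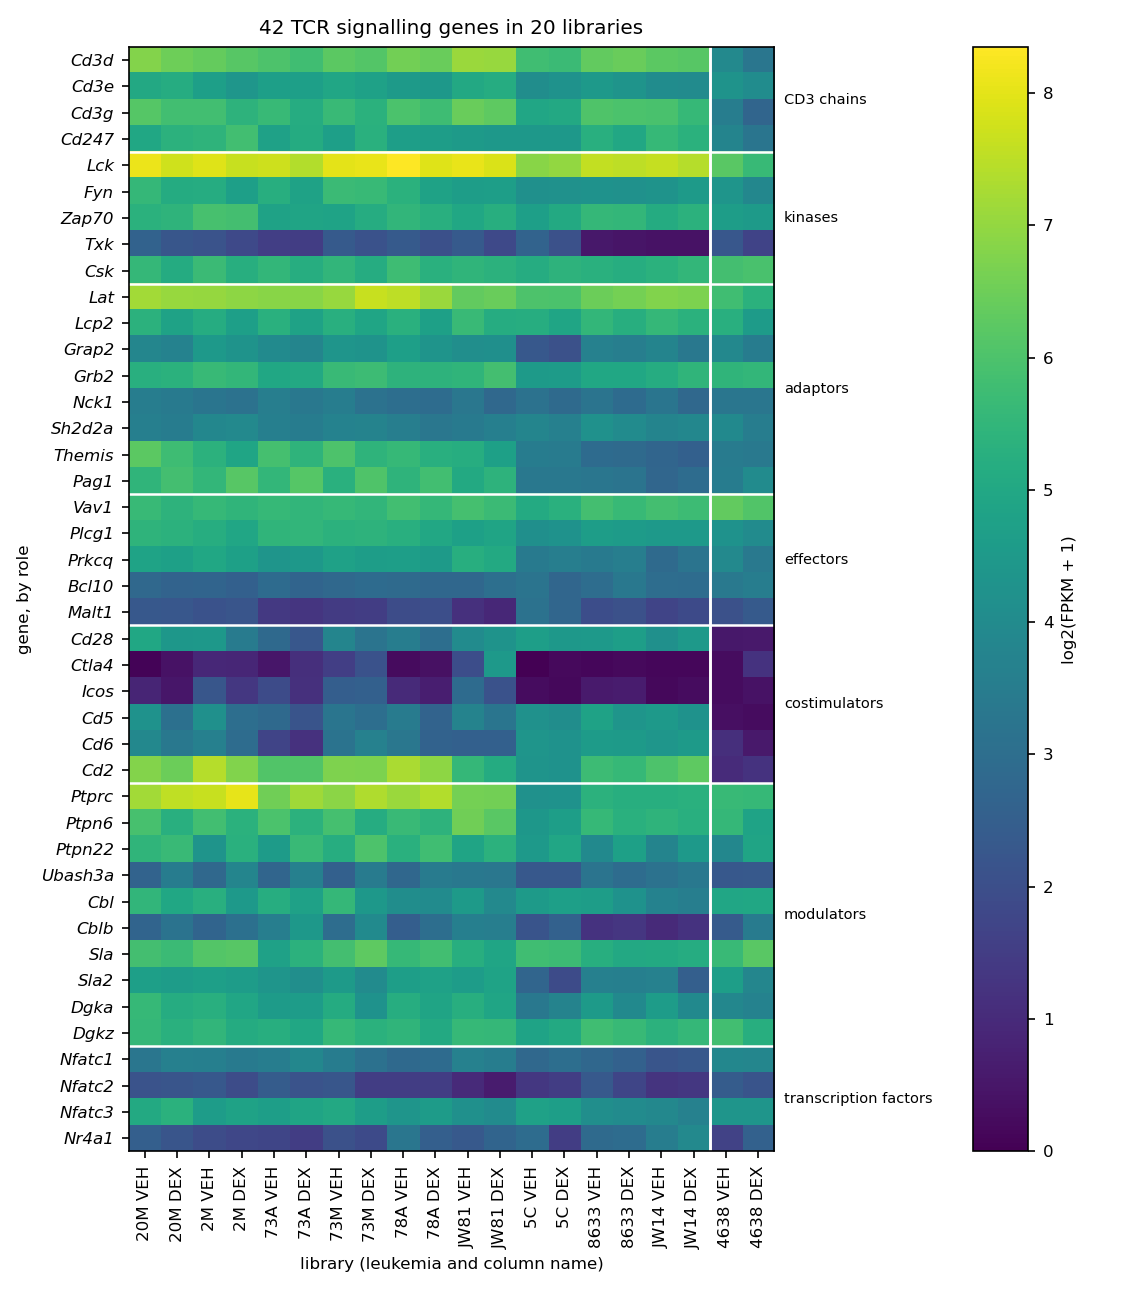
Level of each of the 42 genes (rows, grouped by role) in 20 libraries (columns, named by leukemia and column name), as log2(FPKM + 1) on the colour scale. *Lck*, *Lat*, *Cd2* and *Ptprc* hold the brightest cells, the 5C, 8633 and JW14 columns are darker in *Themis*, *Pag1* and *Ptprc*, and the 4638 columns are dark in *Cd2*, *Cd5*, *Cd6* and *Cd28*.

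The 4 CD3 chain genes were within a 3-fold range among the 9 leukemias. *Cd3d*, which pairs with CD3 epsilon in the receptor, was at 99.5 FPKM in 20M, 134 in JW81, 77.4 in 2M, 58.7 in 73A, 89.99 in 78A, 71.2 in 73M, 52.3 in 5C, 83.2 in 8633 and 73.4 in JW14 (82.2 ± 24.2, SD, n = 9). *Cd3g* was at 62.8, 81.4, 48.0, 41.5, 57.7, 44.3, 30.8, 64.3 and 54.2 FPKM in the same order. *Cd3e* was at 33.4, 33.4, 22.4, 25.3, 21.6, 27.9, 17.1, 20.3 and 15.4 FPKM, again in that order. These 3 neighbours on chromosome 9 were high in JW81 and low in 5C, although for *Cd3e* the lowest leukemia was JW14. *Cd247*, on chromosome 1, encodes the zeta chain and followed another order, with 35.3 FPKM in 20M, 21.8 in JW81, 48.8 in 2M, 30.4 in 73A, 24.3 in 78A, 31.6 in 73M, 20.8 in 5C, 34.3 in 8633 and 43.4 in JW14. JW81 was thus highest for *Cd3d* and *Cd3g* and, after 5C, lowest for *Cd247*. The log2 ratio of *Cd247* to *Cd3e* ranged from −0.62 in JW81 to 1.49 in JW14. Exons of *Cd247* overlap those of *Pou2f1* on the opposite strand (8.97 FPKM on average), and reads of such pairs cannot be told apart without strand.

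Among the proximal kinases, *Lck* had the highest mean FPKM of the 42 genes. It was at 246 FPKM in 20M, 249.9 in JW81, 221 in 2M, 188 in 73A, 284 in 78A, 261.6 in 73M, 121 in 5C, 185 in 8633 and 182 in JW14 (215 ± 51.0, SD, n = 9). *Fyn*, the related SRC-family kinase, was at 17.6 (5C) to 49.5 FPKM (73M), and *Lck* exceeded it in 9 of 9 leukemias by 2.91 ± 0.35 on the log2 scale. *Zap70*, which couples the phosphorylated CD3 chains to the adaptors, was at 40.3 FPKM in 20M, 33.7 in JW81, 57.9 in 2M, 27.5 in 73A, 40.8 in 78A, 31.1 in 73M, 29.1 in 5C, 45.6 in 8633 and 37.1 in JW14. *Csk*, which phosphorylates the inhibitory tyrosine of LCK, had the smallest SD of all 42 genes on the log2 scale, 0.09. Its level was 40.2, 41.3, 43.8, 40.5, 45.4, 39.2, 37.8, 37.1 and 42.1 FPKM from 20M to JW14 in the order above. *Txk*, a TEC-family kinase, behaved differently, with 4.46 FPKM in 20M, 3.35 in JW81, 2.998 in 2M, 1.89 in 73A, 3.60 in 78A, 3.71 in 73M and 4.30 in 5C but only 0.417 in 8633 and 0.322 in JW14.

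The adaptors held both steady and strongly varying members. *Lat*, the membrane scaffold, was at 139 FPKM in 20M, 82.3 in JW81, 126 in 2M, 115 in 73A, 159 in 78A, 166 in 73M, 62.8 in 5C, 91.4 in 8633 and 105 in JW14. *Lcp2*, which encodes SLP76, was at 33.4 FPKM in 20M, 42.5 in JW81, 30.2 in 2M, 32.9 in 73A, 32.2 in 78A, 33.3 in 73M, 32.4 in 5C, 40.9 in 8633 and 42.4 in JW14, among the 3 smallest SDs (0.19) of genes at 10 FPKM or more. *Themis*, which is needed for thymocyte selection and binds GRB2, had the largest SD of the 42 genes (1.29). Its levels were 63.8 FPKM in 20M, 30.8 in JW81, 34.8 in 2M, 50.0 in 73A, 42.7 in 78A and 53.0 in 73M, against 10.2 in 5C, 6.48 in 8633 and 5.30 in JW14. *Pag1*, the membrane anchor that recruits CSK, came next (SD 1.27). It was at 49.8 FPKM in 20M, 36.9 in JW81, 58.5 in 2M, 57.6 in 73A, 48.6 in 78A and 51.9 in 73M, and at 9.13 in 5C, 8.46 in 8633 and 6.29 in JW14. For both genes the lowest of the first 6 leukemias was at least 3 times the highest of the other 3. *Nck1*, an adaptor to the cytoskeleton, was at 10.1, 7.47, 8.22, 10.1, 6.84, 9.20, 7.11, 7.32 and 7.20 FPKM from 20M to JW14 in that order. The remaining adaptors were *Grap2* (3.55 to 22.2 FPKM), *Grb2* (22.6 to 50.3 FPKM) and *Sh2d2a* (9.91 to 16.5 FPKM).

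Of the effectors, *Vav1*, the exchange factor for RAC, was nearly even at 45.2 FPKM in 20M, 54.0 in JW81, 45.3 in 2M, 45.5 in 73A, 50.6 in 78A, 45.9 in 73M, 35.8 in 5C, 52.8 in 8633 and 54.7 in JW14. *Plcg1*, the phospholipase, was at 17.52 (5C) to 43.3 FPKM (73A), and *Prkcq*, which encodes PKC theta, at 7.34 (JW14) to 34.5 FPKM (JW81). *Bcl10* was at 5.17 to 8.02 FPKM. Its partner in the signalling complex to NF-kB, *Malt1*, was at 1.08 (JW81) to 6.86 FPKM (5C). As a group the transcription factors were lower, with a mean log2(FPKM + 1) of 2.96 against 3.92 for the effectors, although *Nfatc3* was on average above *Prkcq*, *Bcl10* and *Malt1*. *Nfatc3* was at 12.8 to 35.9, *Nfatc1* at 3.75 to 12.1 and *Nfatc2* at 0.778 to 3.84 FPKM, and *Nfatc3* was the highest NFAT gene in 9 of 9 leukemias. *Nr4a1* (Nur77), an early gene whose transcript rises on TCR signalling in thymocytes, was at 4.20 FPKM in 20M, 4.77 in JW81, 2.63 in 2M, 2.11 in 73A, 6.74 in 78A, 2.93 in 73M, 4.28 in 5C, 6.59 in 8633 and 12.5 in JW14. It was highest in JW14, the leukemia in which 10 of the 42 genes were lowest.

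Costimulatory receptors varied most as a group (median SD 0.91). *Cd2*, the receptor for CD48 in the mouse, was at 99.7 FPKM in 20M, 40.0 in JW81, 139.5 in 2M, 66.3 in 73A, 137 in 78A, 105 in 73M, 18.6 in 5C, 49.1 in 8633 and 69.8 in JW14. *Cd5*, an inhibitory receptor whose surface level follows TCR signal strength in thymocytes, was at 12.7 FPKM in 20M, 10.4 in JW81, 12.3 in 2M, 4.84 in 73A, 7.75 in 78A and 7.79 in 73M, and at 16.8 in 5C, 23.2 in 8633 and 20.1 in JW14. Its neighbour and relative *Cd6* was at 11.4 FPKM in 20M, 4.89 in JW81, 9.05 in 2M, 1.79 in 73A, 7.09 in 78A and 9.81 in 73M, against 18.7 in 5C, 22.9 in 8633 and 21.1 in JW14. *Cd5* and *Cd6* were thus highest in the leukemias where *Themis* and *Pag1* were lowest. *Icos* was at 0.622 FPKM in 20M, 4.91 in JW81, 2.62 in 2M, 1.98 in 73A, 0.808 in 78A, 4.74 in 73M, 0.164 in 5C, 0.524 in 8633 and 0.172 in JW14. *Ctla4*, the inhibitory counterpart of CD28, was at 12.3 FPKM in JW81 and 2.61 in 73M. It was under 1 FPKM in the other 7 leukemias, at 0.187 in 20M, 0.892 in 2M, 0.805 in 73A, 0.230 in 78A, 0.0827 in 5C, 0.135 in 8633 and 0.103 in JW14. *Cd28* itself was at 4.98 (73A) to 25.3 FPKM (20M).

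Among the modulators, *Ptprc*, which encodes the CD45 phosphatase that primes LCK, was at 166 FPKM in 20M, 94.4 in JW81, 229.6 in 2M, 116.9 in 73A, 150.3 in 78A and 141 in 73M, against 17.9 in 5C, 38.4 in 8633 and 37.4 in JW14. CD45 is carried by most blood cells, so its level here is not that of T cells alone. *Ptpn22*, a phosphatase that acts on LCK and ZAP70, was at 46.3, 34.1, 28.5, 36.2, 45.96 and 49.7 FPKM in the first 6 and at 25.6 in 5C, 20.1 in 8633 and 17.4 in JW14. *Ptpn6* (SHP1) was at 48.5 FPKM in 20M, 83.1 in JW81, 47.5 in 2M, 50.9 in 73A, 45.7 in 78A, 46.6 in 73M, 22.6 in 5C, 42.9 in 8633 and 39.6 in JW14. The ubiquitin ligase gene *Cblb* was at 6.77 FPKM in 20M, 11.0 in JW81, 6.52 in 2M, 16.0 in 73A, 5.90 in 78A and 11.0 in 73M, and at 4.25 in 5C, 1.42 in 8633 and 1.16 in JW14. Its relative *Cbl* was at 37.3, 18.3, 29.5, 31.0, 15.7, 33.4, 23.9, 21.1 and 11.3 FPKM from 20M to JW14 in order, and exceeded *Cblb* in 9 of 9 leukemias. *Ubash3a*, a negative regulator that binds CBL, was at 7.76, 9.10, 9.47, 8.498, 7.98, 7.51, 3.95, 7.52 and 8.53 FPKM in the same order, low in 5C alone. The other modulators were *Sla* (32.6 to 69.7 FPKM), *Sla2* (4.21 to 25.5 FPKM) and the diacylglycerol kinases *Dgka* (10.7 to 40.8 FPKM) and *Dgkz* (30.3 to 51.1 FPKM). Exons of *Sla2* overlap *Rab5if* (14.9 FPKM) and those of *Dgkz* overlap *Gm9821* (16.2 FPKM), each on the opposite strand.

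**Figure D2:**
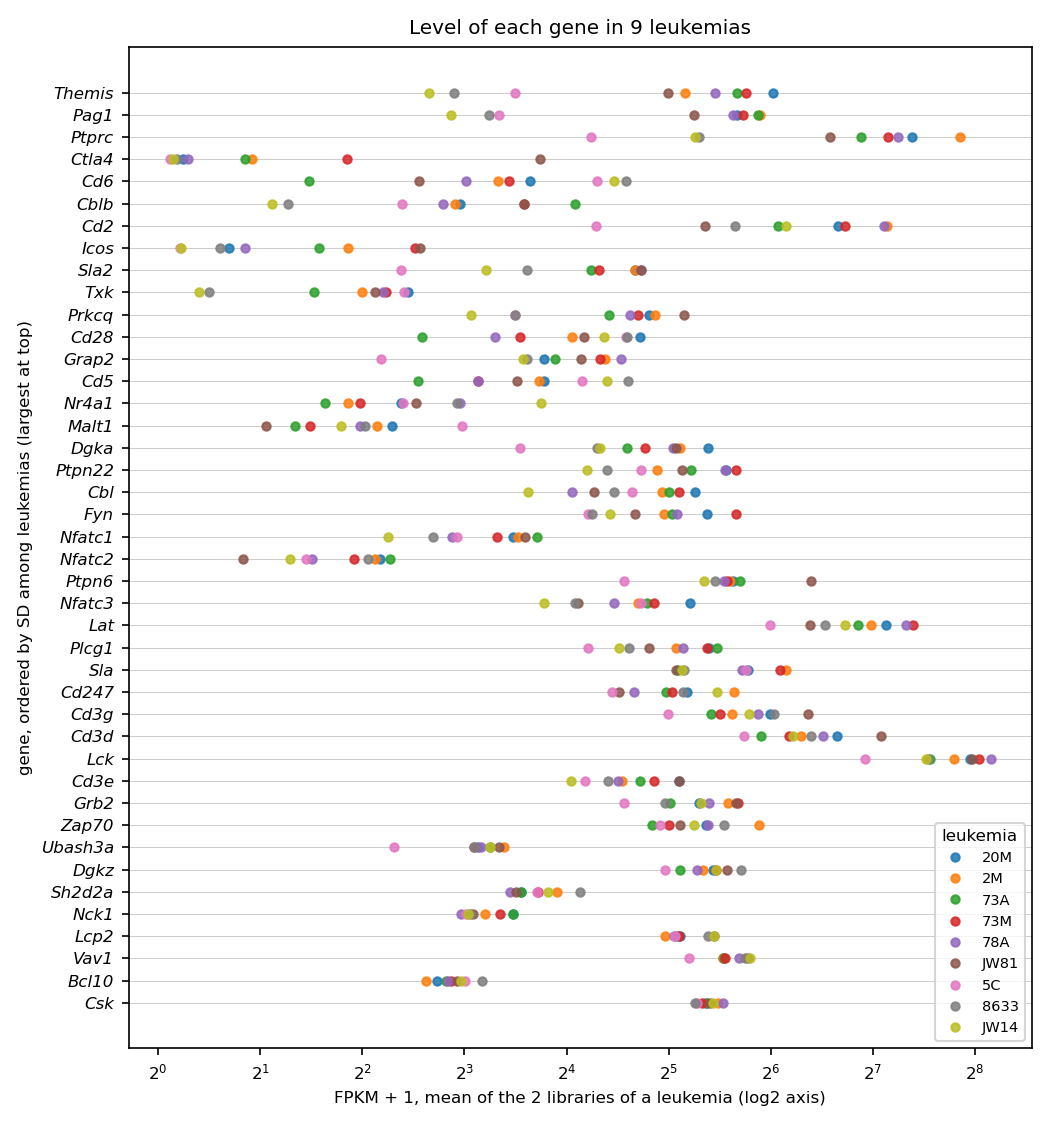
Level of each of the 42 genes in 9 leukemias, as FPKM + 1 on a log2 axis; each point is the mean of the 2 libraries of a leukemia and genes are ordered by their SD among leukemias, largest at the top. *Themis* (SD 1.29), *Pag1* and *Ptprc* split into 6 high leukemias and 3 low ones (5C, 8633, JW14), while the points of *Csk* (SD 0.09) nearly coincide.

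A set of 16 of the 42 genes was lower in all 3 of 5C, 8633 and JW14 than in any of the other 6 leukemias, against 16.5% of all genes tested. It held *Lck*, *Fyn*, *Cd3e*, *Plcg1*, *Prkcq*, *Grap2*, *Themis*, *Pag1*, *Ptprc*, *Ptpn22*, *Ptpn6*, *Cblb*, *Sla2*, *Dgka*, *Icos* and *Ctla4*. The gap was small for some, such as *Lck* (185 against 188 FPKM at the border), and wide for others, such as *Pag1* (9.13 against 36.9 FPKM). Only *Cd5*, *Cd6* and *Bcl10* were higher in all 3 than in the other 6, against 15.4% of genes tested. The same 3 leukemias stood apart in *Dtx1*, a NOTCH1 target, with 0.157 to 0.166 FPKM against 42.9 to 119 FPKM; they were singled out from earlier results of these data, and no test of the split was made. The leukemia 5C was lowest for 19 of the 42 genes (14.4% of genes tested were lowest there), JW14 for 10 (17.5%), 8633 for 1 and the other leukemias for 12. As the mean over 42 genes of log2(FPKM + 1), the TCR signalling score averaged 4.32 ± 0.28 (SD, n = 9). It was highest in 20M (4.61) and lowest in 5C (3.85), with 4.11 in 8633 and 3.99 in JW14 also below the remaining leukemias. The neutrophil score was 1.87 in JW14, 4.73 in 8633 and 5.78 in 5C, against 5.77 to 7.94 in the others, and its part in these levels was not tested.

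In 4638, outside the 9 leukemias, several T-cell genes were nearly absent. *Cd2* was at 1.19 FPKM, *Cd5* at 0.231, *Cd28* at 0.465, *Cd6* at 0.819 and *Icos* at 0.264 FPKM. *Cd3d* (11.4 FPKM), *Cd3g* (8.17), *Cd247* (10.6) and *Lck* (60.5) were below the lowest of the 9 leukemias, whereas *Vav1* (73.3) and *Csk* (58.9) were above the highest. *Cd3e*, at 17.1 FPKM, was inside their range. The score was 3.62. In the same libraries the myeloid gene *Lyz2* was at 724.9 FPKM, against 6.79 to 310.4 in the 9 leukemias, and the neutrophil score was 9.28, and the share of leukemia cells was not measured.

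The DEX and VEH columns were compared within leukemias. Of the 42 genes, 13 (31.0%) differed at an adjusted p of 0.05 with edgeR's quasi-likelihood test and leukemia as a block, against 13.0% of all 11339 genes tested. There were 6 higher in DEX columns (6.22% of all genes tested were higher), namely *Ptpn22*, *Cblb*, *Pag1*, *Ubash3a*, *Ctla4* and *Ptprc*, and 7 lower (6.79% of all genes), namely *Lcp2*, *Cd5*, *Txk*, *Themis*, *Nck1*, *Cbl* and *Ptpn6*. By role, 6 of 10 modulators, 4 of 8 adaptors, 2 of 6 costimulators and 1 of 5 kinases passed the test, and 0 of the 4 CD3 chains, 5 effectors and 4 transcription factors did. The median log2 fold change was −0.087 for the 42 genes and 0.0039 for all genes tested. The direction was the same in 9 of 9 leukemias for 5 of the 42 genes (*Ptpn22*, *Lcp2*, *Cd5*, *Themis* and *Nck1*), against 6.70% of all genes tested. At an unadjusted p under 0.05 there were 19, against 31.5% of all genes tested.

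*Ptpn22* (ENSMUSG00000027843, chromosome 3 of GRCm38, 103859795 to 103912247) was at 12.7, 22.7 and 42.8 FPKM (lowest, median and highest of 9 leukemias) in VEH columns and at 22.0, 40.0 and 63.9 in DEX columns. The groups overlapped, but the DEX library was higher in each leukemia, by 0.22 in 20M to 1.10 in 73A on the log2(FPKM + 1) scale. The fitted log2 fold change was 0.75 (SE 0.09, 1.68-fold, edgeR adjusted p = 0.00113), the smallest p of the 42 genes. *Cblb* (ENSMUSG00000022637, chromosome 16, 52031225 to 52208048), whose product sets the need for CD28 in T-cell activation, was at 1.01, 5.47 and 11.0 FPKM in VEH and 1.31, 7.54 and 21.0 in DEX columns. It was higher in 8 of 9 leukemias, with a log2 fold change of 0.59 (SE 0.11, edgeR adjusted p = 0.00700), and 73M and 73A moved most (1.03 and 0.88). *Pag1* (ENSMUSG00000027508, chromosome 3, 9687479 to 9833679) was at 5.78, 38.7 and 45.2 FPKM in VEH and 6.80, 55.0 and 71.9 in DEX columns. Its log2 fold change was 0.42 (SE 0.09, edgeR adjusted p = 0.0136). The 6 leukemias with high *Pag1* rose by 0.32 to 0.74, whereas 5C and 8633 changed by −0.03 and −0.04 and JW14 by 0.20.

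*Ubash3a* (ENSMUSG00000042345, chromosome 17, 31207873 to 31246892) was at 3.94, 5.92 and 9.18 FPKM in VEH and 3.96, 10.03 and 12.9 in DEX columns (log2 fold change 0.60, SE 0.16, edgeR adjusted p = 0.0300). Of the 9 leukemias, 20M, 2M, 73A, 73M and 78A rose by 0.67 to 0.99, and JW81, 5C, 8633 and JW14 lay between −0.25 and 0.20. *Ptprc* (ENSMUSG00000026395, chromosome 1, 138062861 to 138175708) was at 17.6, 95.5 and 198 FPKM in VEH and 18.2, 142 and 261 in DEX columns, a log2 fold change of 0.29 (SE 0.08, edgeR adjusted p = 0.0356). The same 5 leukemias rose, by 0.30 to 0.63, and the other 4 lay between −0.12 and 0.06. Whether these leukemias differ from the others in response was not tested. *Ctla4* (ENSMUSG00000026011, chromosome 1, 60887000 to 60915832) had the largest fitted change, a log2 fold change of 1.35 (SE 0.35, edgeR adjusted p = 0.0300). The VEH values were 0.00, 0.173 and 2.96 FPKM and the DEX values 0.104, 0.319 and 21.7. On the log2(FPKM + 1) scale JW81 moved most (2.52, from 2.96 to 21.7 FPKM), followed by 73A (0.64) and 73M (0.56). Without JW81 the gene no longer reached a mean of 1 FPKM and was not tested.

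Of the genes that fell, *Lcp2* (ENSMUSG00000002699, chromosome 11, 34046920 to 34092295) was at 35.4, 38.5 and 49.9 FPKM in VEH and 25.1, 28.9 and 39.2 in DEX columns. It was lower in 9 of 9 leukemias, by 0.22 to 0.55, and fell by 0.37 in the fit (SE 0.05, edgeR adjusted p = 0.00211). Its SD among leukemias (0.19) was among the 3 smallest of genes at 10 FPKM or more. *Cd5* (ENSMUSG00000024669, chromosome 19, 10717116 to 10739002) was at 6.23, 17.4 and 26.8 FPKM in VEH and 3.45, 7.54 and 19.6 in DEX columns. It fell by 0.62 (SE 0.12, edgeR adjusted p = 0.0108), most in 2M (−1.17) and 20M (−1.14) and least in 5C (−0.15). Its relative *Cd6* did not pass the test (−0.20, SE 0.14, adjusted p = 0.336). *Txk* (ENSMUSG00000054892, chromosome 5, 72695978 to 72752777) was at 0.321, 4.10 and 5.38 FPKM in VEH and 0.322, 2.58 and 3.73 in DEX columns, and fell by 0.34 (SE 0.08, edgeR adjusted p = 0.0157), most in 5C (−0.59). It hardly moved in 73A (−0.04), 8633 (−0.05) and JW14 (0.0003).

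*Themis* (ENSMUSG00000049109, chromosome 10, 28668360 to 28883818) was at 5.66, 40.5 and 74.3 FPKM in VEH and 4.93, 29.05 and 53.3 in DEX columns. It fell by 0.29 (SE 0.07, edgeR adjusted p = 0.0177), with −0.02 in both 5C and 8633 and −0.59 in 73M. *Nck1* (ENSMUSG00000032475, chromosome 9, 100492293 to 100546134) was at 7.003, 8.55 and 11.0 FPKM in VEH and 6.01, 6.68 and 9.53 in DEX columns, and fell by 0.25 (SE 0.06, edgeR adjusted p = 0.0194). Both were lower in 9 of 9 leukemias. *Cbl* (ENSMUSG00000034342, chromosome 9, 44142976 to 44234049) was at 11.9, 24.2 and 46.1 FPKM in VEH and 10.8, 20.7 and 30.7 in DEX columns, and fell by 0.40 (SE 0.11, edgeR adjusted p = 0.0348), in 8 of 9 leukemias and most in 73M (−1.12). *Ptpn6* (ENSMUSG00000004266, chromosome 6, 124720707 to 124738714) was at 20.3, 55.7 and 92.4 FPKM in VEH and 24.8, 38.5 and 73.8 in DEX columns, and fell by 0.32 (SE 0.09, edgeR adjusted p = 0.0406), with the opposite sign in 5C (0.28). The related ligases thus moved in opposite directions. The log2 ratio of *Cbl* to *Cblb* was 2.61 on average in VEH and 1.63 in DEX columns and was lower in DEX in 9 of 9 leukemias. This ratio restates the calls of both genes in the same libraries and is not a separate result.

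**Figure D3:**
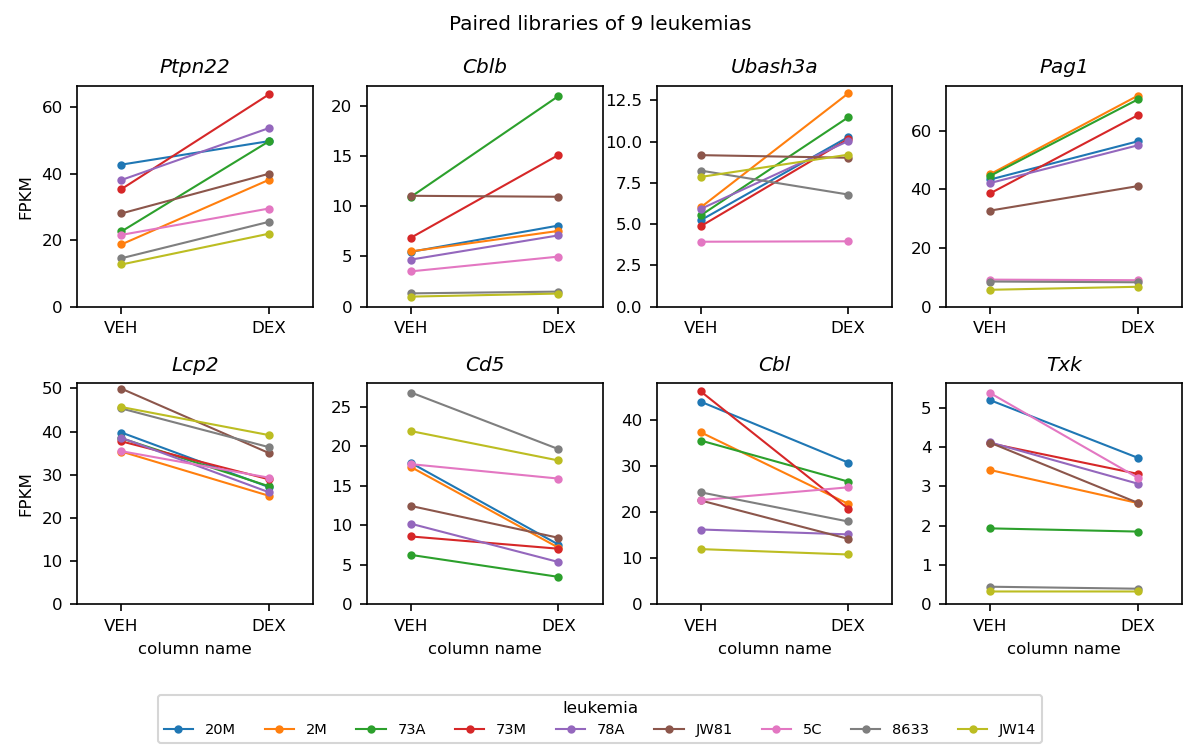
FPKM of 8 genes in the VEH and DEX libraries of 9 leukemias (lines join the 2 libraries of a leukemia; each axis starts at 0). *Ptpn22* rises and *Lcp2* and *Cd5* fall in 9 of 9 leukemias, whereas *Ubash3a* and *Pag1* rise clearly only in some.

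Among genes that did not pass the test, the CD3 chains had log2 fold changes of −0.07 (*Cd3d*, SE 0.05, adjusted p = 0.368), 0.02 (*Cd3e*, SE 0.06, adjusted p = 0.885), −0.20 (*Cd3g*, SE 0.07, adjusted p = 0.0673) and 0.17 (*Cd247*, SE 0.10, adjusted p = 0.259). *Lck* was at −0.14 (SE 0.07, adjusted p = 0.185), *Zap70* at 0.16 (SE 0.07, adjusted p = 0.149) and *Lat* at 0.06 (SE 0.09, adjusted p = 0.704). *Icos* lay just beyond the threshold (−0.60, SE 0.19, adjusted p = 0.0511). *Nr4a1* was at −0.27 (SE 0.20, adjusted p = 0.366), lower in 6 and higher in 3 leukemias, from −1.41 in 5C to 0.40 in JW14. A p above the threshold does not show that these levels were alike. The score was lower in DEX columns in 9 of 9 leukemias, by −0.078 ± 0.064 (SD, n = 9), beside a mean shift of −0.024 and a median shift of −0.036 over all genes tested. With TMM library sizes it was −0.033 ± 0.085 and lower in 5 of 9.

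**Figure D4:**
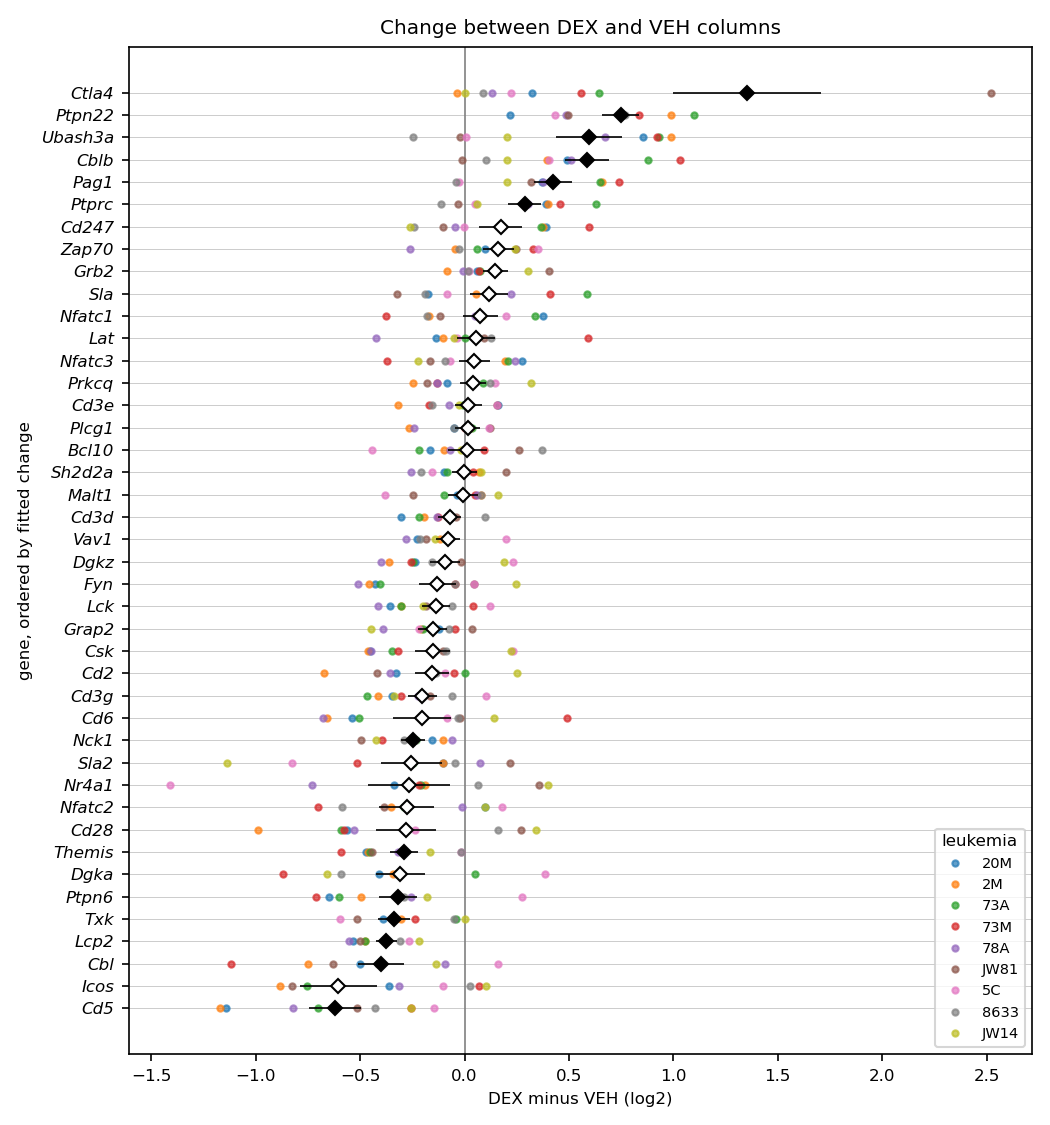
Difference between DEX and VEH columns for the 42 genes. Coloured points give each leukemia's difference in log2(FPKM + 1), and diamonds give edgeR's log2 fold change with its SE (filled for the 13 genes at an adjusted p under 0.05), ordered by size from *Ctla4* (1.35) to *Cd5* (−0.62); the diamond of *Ctla4* lies right of all points but JW81 because low values weigh differently on the log2(FPKM + 1) scale.

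Each leukemia was left out in turn, which also leaves fewer libraries and took the calls over all genes from 1475 to between 675 and 2036. *Ptpn22*, *Cblb*, *Pag1*, *Lcp2*, *Cd5*, *Txk* and *Nck1* passed the test whichever leukemia was left out. *Themis* did not without 2M (adjusted p = 0.0502), nor *Ctla4* without 20M or 73A (0.0723 and 0.0718). *Ptprc* did not without 20M, 2M, 73A, 73M or 78A (0.0612 to 0.0896), *Ubash3a* without the same 5 (0.0551 to 0.0794), *Cbl* without 20M, 2M, 73A, 73M, 8633 or JW81 (0.0570 to 0.0839) and *Ptpn6* when any leukemia but 5C was left out (0.0532 to 0.0947). Their fold changes kept their sign, with log2 values of 0.23 to 0.33 for *Ptprc*, 0.52 to 0.70 for *Ubash3a*, −0.48 to −0.32 for *Cbl* and −0.40 to −0.28 for *Ptpn6*. Libraries with ribosomal RNA counts were mostly DEX libraries (4 of 5). With a term for them, 5 of the 42 genes passed (*Lcp2*, *Cblb*, *Cd5*, *Ptpn22* and *Txk*), against 4.10% of genes tested. In the 4 leukemias without such a library 5 of 41 passed (*Lcp2*, *Ptpn6*, *Cblb*, *Cd5* and *Ptpn22*), against 4.26% of genes tested, and in the 5 leukemias with one 0 of 42 passed (0.133% of genes tested) with 14 at an unadjusted p under 0.05, where *Ptpn22* was at 0.61 and *Lcp2* at −0.34. In 4638, which was not in the fit that made these calls, the 2 libraries differed in the same direction for 11 of the 13 genes, against 68.9% of all 1475 called genes. The exceptions were *Ptprc* (−0.04) and *Cbl* (0.06). Some of the 11 also differed little, such as *Nck1* (−0.008), *Ubash3a* (0.06) and *Cd5* (−0.07).

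Markers of other cells also moved between columns in some leukemias. The neutrophil score, over 7 genes, was lower in the DEX library of 73M (−1.39), JW81 (−1.09), JW14 (−0.69), 73A (−0.51), 20M (−0.34) and 5C (−0.26) and higher in 78A (0.73), 8633 (0.57) and 2M (0.10). Its summed level was 43.8 to 4456 FPKM in VEH and 20.2 to 2627 FPKM in DEX columns. In 73M the erythroid score fell by 2.12 and the B lineage score by 0.99. Of these lists 0 of 7 neutrophil, 0 of 3 erythroid and 0 of 1 B lineage genes tested passed between DEX and VEH, and of 6 myeloid genes 1 did, *Itgam* (−0.47, adjusted p = 0.0369). The part of these cells in the changes of *Ptprc*, *Ptpn6* and *Lcp2*, which myeloid cells also express, was not tested.

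Other genes of the pathway were read from the same fit. Of 34 further TCR pathway genes, all tested, 3 were higher in DEX columns and 6 lower, where 6.22% of all genes tested were higher and 6.79% lower. The higher ones were *Pik3r1*, the regulatory subunit of PI3K (0.86, SE 0.17, edgeR adjusted p = 0.00987), *Itpr1*, a calcium release channel (0.45, SE 0.13, adjusted p = 0.0458), and *Was*, an actin regulator (0.23, SE 0.05, adjusted p = 0.0204). The lower ones were *Rasgrp1*, the diacylglycerol-activated exchange factor for RAS (−0.80, SE 0.19, adjusted p = 0.0214), the phosphatase gene *Ptpn7* (−0.49, SE 0.07, adjusted p = 0.00314), the RAS exchange factor *Sos1* (−0.38), the membrane adaptors *Trat1* (−0.30) and *Lax1* (−0.26) and the catalytic PI3K subunit *Pik3cd* (−0.28). *Rasgrp1* was lower in 8 of 9 leukemias and ranged from 1.58 FPKM in 73A to 195 FPKM in JW81. Of 20 genes induced on T-cell activation, 13 were tested and 4 passed, against 13.0% of all genes tested. *Spry1*, an inhibitor of RAS signalling, was higher (1.04, SE 0.18, adjusted p = 0.00667), and *Il2ra* (−0.96, SE 0.20, adjusted p = 0.0115), *Pdcd1*, which encodes PD-1 (−0.93, SE 0.16, adjusted p = 0.00664), and *Nfkbid* (−0.53, SE 0.12, adjusted p = 0.0186) were lower. *Egr1*, *Cd69* and *Dusp6* did not pass the test.

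Promoters were searched because some of these genes moved together. RefSeq promoters of the GRCm38.p6 build were given for 33 of the 42 genes, and the 250 bases before each start were searched on both strands for 9 motifs, chosen after the calls were known. AGAACA, which glucocorticoid, androgen and progesterone receptors can bind as part of a palindrome, was present in 7 of the 12 genes that passed the DEX against VEH test and had a promoter, and in 1 of 21 that did not (*Dgka*). Among all 8208 genes tested with a promoter it was in 13.0%, with 12.6% of called and 13.0% of other genes, and in 18.2% of all 27025 genes with a promoter. The stretches around the motif in the 7 genes are shown because they are the sequences behind that count. Each is read on the gene's strand, with the motif or its reverse complement in capitals.
*Ptpn22*, second start, chr3:103860111-103860140, plus strand: gaccacagtttgTGTTCTggttagcctctt
*Ptprc*, second start, chr1:138175248-138175277, minus strand: tagcaagtggttTGTTCTtagggtaagaga
*Lcp2*, chr11:34046695-34046724, plus strand: ctgctttcaataAGAACAaactggtgggga
*Txk*, outermost start, chr5:72752823-72752852, minus strand: cttgaggttttcAGAACAggaaattaggtg
*Txk*, second start, chr5:72736743-72736772, minus strand: ctaagacattggAGAACActgtttctgcaa
*Themis*, second start, chr10:28668352-28668381, plus strand: gcagccgcagggAGAACAaaaagagcttta
*Nck1*, outermost start, chr9:100546335-100546364, minus strand: ggaggctaggggAGAACAgggcggtggggc
*Ptpn6*, chr6:124738823-124738852, minus strand: tgagctccaggtAGAACAgcaggtggctcc

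A gene with several starts was counted when any of them had the motif. Before the outermost (most upstream) start alone it was in 4 of the 12 genes that passed (*Lcp2*, *Txk*, *Nck1* and *Ptpn6*), in 1 of the 21 others and in 10.7% of all genes tested with a promoter. In *Ptpn22*, *Ptprc* and *Themis* the motif lay before the second start, downstream of the outermost one, and in *Ptprc* and *Themis* it was in an annotated exon of another transcript. It ended 58 bases before the outermost start of *Txk* and 213 before that of *Nck1*, and 149 and 26 before the second start of *Ptpn22* and *Themis*. *Ptpn22* and *Ptprc* rose and the other 5 fell, so the same letters stood before genes that moved in either direction. The longer palindrome, AGAACA followed after 3 bases by TGTTCT, was in 0 of the 33 genes and in 3 of all 27025. The other motifs searched were TGTGGT (2 of 12 called and 3 of 21 other genes of the set), GGAAGT (6 and 10), CCGGAAGT (0 and 0), CAGGTG (3 and 10), CAGCTG (1 and 2), the consensus NF-kB site (0 and 0) and TTTCCA (3 and 5). CCGGAAGT contains GGAAGT, and AGAACA is part of the palindrome. In all tested genes these were at 13.0%, 28.7%, 7.71%, 17.3%, 13.1%, 0.183% and 17.4%. A match of letters is a description and does not show binding.

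The whole 250 bases before the outermost start are given for *Txk* (chr5:72752778-72753027, minus strand) and *Nck1* (chr9:100546135-100546384, minus strand), both lower in DEX columns, with the motif in capitals.
*Txk*: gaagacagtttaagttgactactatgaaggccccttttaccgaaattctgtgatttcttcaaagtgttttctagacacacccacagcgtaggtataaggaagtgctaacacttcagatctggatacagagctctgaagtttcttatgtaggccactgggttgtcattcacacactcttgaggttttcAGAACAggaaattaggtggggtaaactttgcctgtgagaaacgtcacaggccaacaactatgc
*Nck1*: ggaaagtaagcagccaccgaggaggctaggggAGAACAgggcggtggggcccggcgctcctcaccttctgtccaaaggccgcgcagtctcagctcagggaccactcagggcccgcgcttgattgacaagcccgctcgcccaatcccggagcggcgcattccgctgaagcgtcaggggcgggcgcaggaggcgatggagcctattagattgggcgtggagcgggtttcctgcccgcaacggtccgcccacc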

How the data were processed

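Poly(A) RNA of 20 libraries (10 leukemias) was sequenced from both ends of each fragment. Alignment by the authors used Bowtie 2 and the mm10 build, and RSEM gave the abundances. The authors deposited expected counts per Ensembl gene, although the table is named for FPKM. RSEM divides ambiguous reads, so 68.3% to 74.5% of nonzero values in a library were exactly whole, with no tolerance. Annotation and the RSEM version are not given in the sources used here. Columns were matched to a sample by name for 17 libraries and to the leukemia alone for 3.

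FPKM were calculated from counts, merged exon lengths of GENCODE M21 (GRCm38; found for 96.6% of genes) and library totals. Floors cover counting error only. Expected counts were rounded and fitted with edgeR 4.0.16 in R 4.3.3 (quasi-likelihood, TMM, mean of at least 1 FPKM, Benjamini-Hochberg over 11339 genes), with terms for leukemia and column name. Because the 2 libraries of a leukemia share that leukemia, leukemia was the block. The libraries' numbers are names only. The standard error was derived from the F statistic. DESeq2 1.42.0 was an alternative, with other size factors, filters, a term for libraries with ribosomal RNA counts, and each leukemia left out. Scripts were tested on simulated data, with Python 3.11.15, numpy 2.4.6 and pandas 2.3.3. The study's text gives RNA-seq of 9 T-ALLs without listing them. Leaving 4638 out was a choice made with earlier results known, and a fit with it was an alternative.

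Values in every leukemia are given for genes past the DEX against VEH threshold, the 8 largest SDs among leukemias, the 4 CD3 chains with *Lck*, *Zap70*, *Lat* and *Nr4a1*, and the 3 smallest SDs among genes at 10 FPKM or more. The 42 genes and all lists were chosen with earlier results of these data known. One gene of the wider pathway list is not reported here.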

Additional observations from a re-analysis of the deposited data

Results flagged for a closer look

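Dixon's gap test was applied to 86 sets of 9 values, the levels and the DEX minus VEH differences of the 42 genes and of the score on the log2(FPKM + 1) scale. It marked 5 sets in which 1 leukemia stood apart, and chance marks about 1 in 20, or about 4. In 3 the leukemia 5C had the lowest level: *Ubash3a* (gap over range 0.690), *Grap2* (0.587) and *Vav1* (0.546). *Vav1* also stood apart in its DEX minus VEH difference in 5C (0.581), at 0.20, the only positive difference of 9. The difference of *Ctla4* in JW81 (2.52) stood apart with a ratio of 0.735. The DEX library of JW81 and the VEH library of 5C were among the 5 with ribosomal RNA counts, and the part of that in these values was not tested.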

How the results depend on the processing

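With DEX against VEH columns, 1475 of all genes and 13 of the 42 passed. DESeq2 gave 2169 and 16, other size factors 1485 and 13, no filter 1803 and 14, edgeR's own filter 1474 and 12, and 10 leukemias 1430 and 13. Without leukemia as a replicate block, 8 genes and 0 of the 42 passed (705 and 4 at an unadjusted p under 0.05). A term for libraries with ribosomal RNA counts left 465 and 5, the 4 leukemias without such libraries 479 and 5, and the 5 with them 15 and 0 (2463 and 14 unadjusted). Leaving out each leukemia gave 675 (without 20M) to 2036 (without 5C) genes and 8 to 15 of the 42; the count of all genes was 725 without 2M, 763 without 73A, 846 without 73M and 973 without JW81, and that of the 42 was 8 without 20M, 2M or 73A. No gene of the 42 that passed in the main or an alternative fit changed sign between them. *Cd3g*, *Dgka* and *Icos* passed with DESeq2 and in some others. Among leukemias, 38 to 41 of the 42 passed in the alternatives run, where 46.7% to 87.5% of all genes tested passed. The score of 4.32 was 4.89 with TPM and 4.65 as the median over genes. Causes were not tested. The shallowest library (8226528 counts) limits genes under 1 FPKM, such as *Ctla4* and *Icos*.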
